A study of Rattus norvegicus with 20 samples.

Results

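Tracheal epithelial cells were compared in culture before they entered skin and after they had been recovered from it. All 4 tracheal samples were used, 2 before and 2 after transplantation, of 20 RNA-seq samples in the series. The cells came from Sprague-Dawley rats that carry EGFP, a green fluorescent reporter, in all tissues, and the tracheal donors were at postnatal day 200. First-round cells had been cultured from the dissociated trachea over irradiated mouse 3T3-J2 fibroblasts, which serve as feeders. Recovered cells were the same cells after they had been injected into newborn mouse skin, grafted on nude mice, dissected out with the graft and cultured again on the same feeder. Both sets were sorted for EGFP before RNA extraction, so a comparison of the sets contrasts 2 rounds of culture that share donor strain, reporter, medium and feeder, and not cells taken directly from tissue. The sources used here do not say that the 2 samples of a set came from separate animals or grafts. The p values rest on the spread between samples of a set, pooled over the 10 sets of the series, and that spread may be technical. The series also holds bladder, vaginal, thymic and whisker follicle cells from the same 2 stages, with 2 samples in each set. Donor ages in postnatal days (PN) were PN201 for bladder, PN200 for vagina, PN137 for thymus and PN57 for whisker, so thymic and whisker donors were younger than tracheal ones. The labels call the bladder cells dome cells and the whisker cells clonal in both stages. Whisker cells are named Cl7 before and scl14 after transplantation, read here as a clone and a subclone. For first-round thymic cells one label says bulk and another names a clone.

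The trachea is lined by a pseudostratified epithelium in which basal cells anchored to the basement membrane renew ciliated and secretory cells. Secretory cells release mucins, antimicrobial proteins and chemokines, and keep the surface fluid by means of channels and tight junctions. The luminal cells carry the simple keratins Krt8, Krt18 and Krt19. In a stratified squamous epithelium such as epidermis, basal cells instead give rise to layers joined by desmosomes, which build a cornified envelope and a lipid barrier. Exchange of the airway pattern for a squamous one is known as squamous metaplasia.

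Between 20723083 and 26587373 reads were counted on genes in the 4 tracheal libraries. Levels are given as CPM, reads per 1000000 counted reads after TMM scaling, which corrects for differences in library composition. CPM is not corrected for gene length, so levels were compared between samples and not between genes. A level of 3 reads, the smallest taken as shown, lay between 0.109 and 0.141 CPM. Of 32494 genes counted, 13302 had at least 1 CPM in at least 1 of the 20 samples and were tested with limma voom. A gene was called when its adjusted p value was under 0.05 and its fold change at least 2. Genes are named only where an identifier was paired with a symbol, which left 1913 genes with 1 usable name each. Nkx2-1, Krt5, Krt14, Tp63, Scgb1a1, Foxj1, Ivl and Lor, which mark airway or squamous cells, had no paired identifier and were not analysed here. The tracheal label could therefore be checked only through the simple keratins, secretory genes and foregut factors given with the results, which are shared with other epithelia.

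Recovered tracheal cells differed from first-round cells in 1653 genes, 12.4% of those tested. Of these, 584 genes (4.39%) were higher and 1069 genes (8.04%) were lower in the recovered cells. The falls were also the deeper changes. A log2 fold change of -4 or less was seen in 115 called genes and one of 4 or more in 16. The median log2 fold change was 0.02 over all genes tested and -0.08 over those with a usable name. The named genes had been listed by the study because they differed from whisker cells in at least 1 comparison of these samples. Among them 196 genes (10.2%) were higher and 364 genes (19%) lower, and these shares serve as the background for the gene groups described here.

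**Figure D1:**
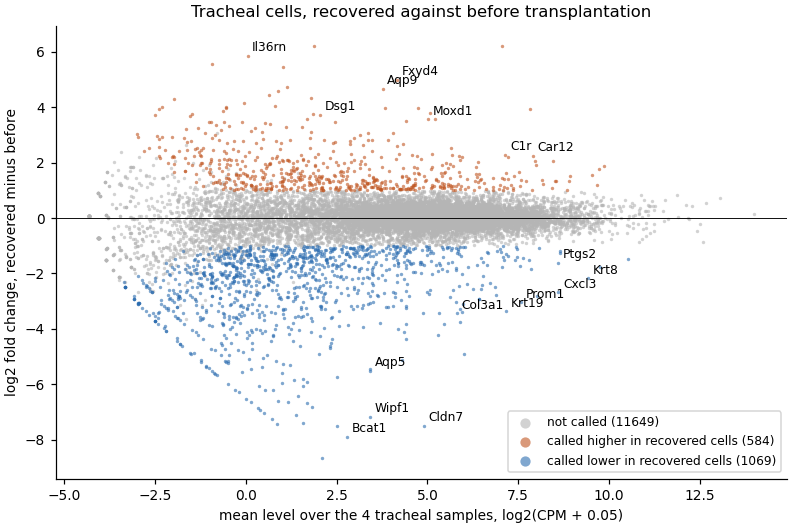
Log2 fold change of each of the 13302 genes (recovered minus before, vertical axis) against its mean level over the 4 tracheal samples (horizontal axis, log2 of CPM plus 0.05), with called genes in colour. The 1069 lower genes reach further from 0 than the 584 higher ones, and Cldn7, Bcat1 and Wipf1 lie at the lower edge.

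The simple keratins fell. Krt8 (ENSRNOG00000009779), the type II keratin of simple epithelia, was at 1147 and 1095 CPM before transplantation and at 242 and 257 CPM in the recovered cells. Its partner Krt18 went from 71.8 and 73.5 CPM to 7.70 and 6.06 CPM. Krt19, a small type I keratin of simple and ductal epithelia, went from 248 and 273 CPM to 24.3 and 26.2 CPM. In each of the 3 genes both recovered samples lay below both first-round samples, and a difference within a pair was small beside the gap. The share of all genes with sets apart in this way is not given here. Here and elsewhere such separation only describes called genes and is not separate support. On the log2 scale Krt8 fell by 2.17 (SE 0.12, adjusted p = 9.1e-10), Krt18 fell by 3.43 (SE 0.18, adjusted p = 5.2e-10) and Krt19 fell by 3.36 (SE 0.14, adjusted p = 8.4e-11). Krt4, a keratin of moist stratified mucosae, was at 363 and 396 CPM before and 229 and 238 CPM after, a log2 fold change of -0.70 that did not pass the test (adjusted p = 0.11). Krt8 thus stayed at 249 ± 10.8 CPM (SD, n = 2) in recovered cells, against 0.187 CPM in recovered whisker cells. Named genes were listed because they differed from whisker cells in some comparison, so this contrast is partly built in.

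Secretory genes of the airway fell more often than they rose. Of the 24 members of the list with an identifier, 10 fell and 2 rose, with a median log2 fold change of -0.50. The list held 1 rise in place of 2 without either first-round sample or without the second recovered one. Prom1, a protein of apical membrane protrusions, went from 339 and 346 CPM to 43.7 and 39.8 CPM (log2 fold change -3.04, SE 0.11, adjusted p = 1.1e-11). Tspan1, an apical tetraspanin, went from 82.9 and 79.4 CPM to 5.49 and 5.91 CPM (-3.82, SE 0.32, adjusted p = 1.3e-07). The groups did not overlap in either gene. Pigr, the receptor that carries polymeric immunoglobulin to the surface, fell by 3.01 on the log2 scale (SE 0.47, adjusted p = 9.3e-05) from a mean of 4.26 CPM. Cxcl17, a chemokine of mucosal surfaces, had 67 reads in the first-round samples together and 0 in the recovered ones, which makes it at least 21.4-fold lower against a floor of 3 reads over the group. Duox1, an oxidase that makes hydrogen peroxide at the epithelial surface, moved the other way, from 32.1 and 36.0 CPM to 80.0 and 81.2 CPM (1.25, SE 0.08, adjusted p = 5.6e-09). Clca2, a membrane protein of basal and squamous cells, did not pass the fold threshold at 315 CPM before and 392 CPM after.

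Junction and channel genes changed in both directions. Of 46 members with an identifier, 7 rose and 10 fell, beside a background of 10.2% higher and 19% lower. The median was 0.03. Cldn7 (ENSRNOG00000017325), a claudin of tight junctions, had the second deepest fall among named genes at 10 CPM or more, from 59.5 and 58.3 CPM to 0.376 and 0.255 CPM. On the log2 scale it fell by 7.50 (SE 0.35, adjusted p = 1.8e-10). Cldn1, the claudin of the epidermal barrier, rose from 215 and 225 CPM to 464 and 465 CPM (1.08, SE 0.20, adjusted p = 0.00054). For Cldn4 the log2 fold change was -0.18 (adjusted p = 0.18) at a mean of 532 CPM before and 468 CPM after.

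The aquaporins differed in direction. Aqp5, the water channel of secretory cells, went from 19.4 and 22.1 CPM to 0.282 and 0.620 CPM, and Aqp1, a water channel found in many epithelia and vessels, from 8.19 and 7.93 CPM to 0.704 and 0.912 CPM. Aqp9, a channel that also passes glycerol and urea, went from 1.00 and 1.01 CPM to 26.4 and 25.9 CPM. The groups were apart in all 3 genes, with log2 fold changes of -5.51 (SE 0.42, adjusted p = 4.6e-08), -3.28 (SE 0.31, adjusted p = 4.8e-07) and 4.68 (SE 0.29, adjusted p = 4.3e-09). Aqp3, the glycerol channel of basal keratinocytes, was at 103 and 103 CPM before and 102 and 101 CPM after (adjusted p = 0.93).

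Fxyd4 (ENSRNOG00000014578), a small membrane protein that regulates ion transport, had the largest rise of any named gene at 10 CPM or more. It was at 0.884 and 1.33 CPM before and 33.2 and 36.4 CPM after, a log2 fold change of 4.99 (SE 0.31, adjusted p = 4.8e-09). The carbonic anhydrases Car12, Car13 and Car9, which interconvert carbon dioxide and bicarbonate, rose. Car12, a membrane-bound form, went from 78.9 and 88.1 CPM to 401 and 391 CPM (2.25, SE 0.08, adjusted p = 1.4e-11). Clic5, an intracellular chloride channel protein of apical actin structures, fell by 3.96 on the log2 scale (SE 0.29, adjusted p = 2.3e-08), and Slc6a14, an amino acid transporter, fell by 2.70 (SE 0.36, adjusted p = 2e-05).

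Genes of squamous differentiation rose as a group. Of 46 members with an identifier, 19 rose and 1 fell, beside a background of 10.2% higher and 19% lower, and the median was 0.72. Dsg1, a desmosomal cadherin of the upper epidermal layers, went from 0.538 and 0.563 CPM to 7.79 and 7.26 CPM. Dmkn, a secreted protein of the suprabasal layers, went from 0.500 and 0.362 CPM to 3.00 and 3.10 CPM. Calml5, a calcium-binding protein of differentiating keratinocytes, went from 1.00 and 0.966 CPM to 5.68 and 5.80 CPM. Every recovered sample lay above both first-round samples in these genes. Their log2 fold changes were 3.72 for Dsg1 (SE 0.57, adjusted p = 7.7e-05), 2.79 for Dmkn (SE 0.50, adjusted p = 0.00032) and 2.52 for Calml5 (SE 0.29, adjusted p = 4.2e-06).

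Degs2, which makes the phytoceramides of the skin barrier, rose by 2.82 (SE 0.58, adjusted p = 0.001) and Csta, a protease inhibitor of the cornified envelope, rose by 2.29 (SE 0.45, adjusted p = 0.00073). Il36rn, the antagonist of the interleukin-36 receptor, had 1 read in the first-round samples and 95 in the recovered ones. That is a ratio of 99.2 with a 95% exact interval of 17.4 to 3958, which covers counting error only. Padi1, which converts arginine to citrulline in keratins and filaggrin, was the member that fell, from 156 and 146 CPM to 19.5 and 20.2 CPM (-2.92, SE 0.09, adjusted p = 4.4e-12).

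The 4 squamous genes compared here with whisker follicle cells were lower in level in recovered tracheal cells. Dsg1 was at 7.53 CPM in recovered tracheal cells and 31.7 CPM in recovered whisker cells, Dmkn at 3.05 and 90.2 CPM, Calml5 at 5.74 and 52.5 CPM, and Il36rn at 1.95 and 92.4 CPM. These pairs are levels side by side, and the difference was not tested here. A gene could be named only if it differed from whisker cells in some comparison of these samples, so a difference is partly built in. The desmosomal plaque protein Dsp, the cadherin Dsg3, the envelope proteins Evpl and Ecm1 and the protease inhibitor Cst6 were above 90 CPM in both tracheal sets. Their log2 fold changes lay between 0.43 for Dsg3 and 0.72 for Ecm1, below the fold threshold. Dsp was at 2293 ± 102 CPM before and 3637 ± 222 CPM after (SD, n = 2).

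**Figure D2:**
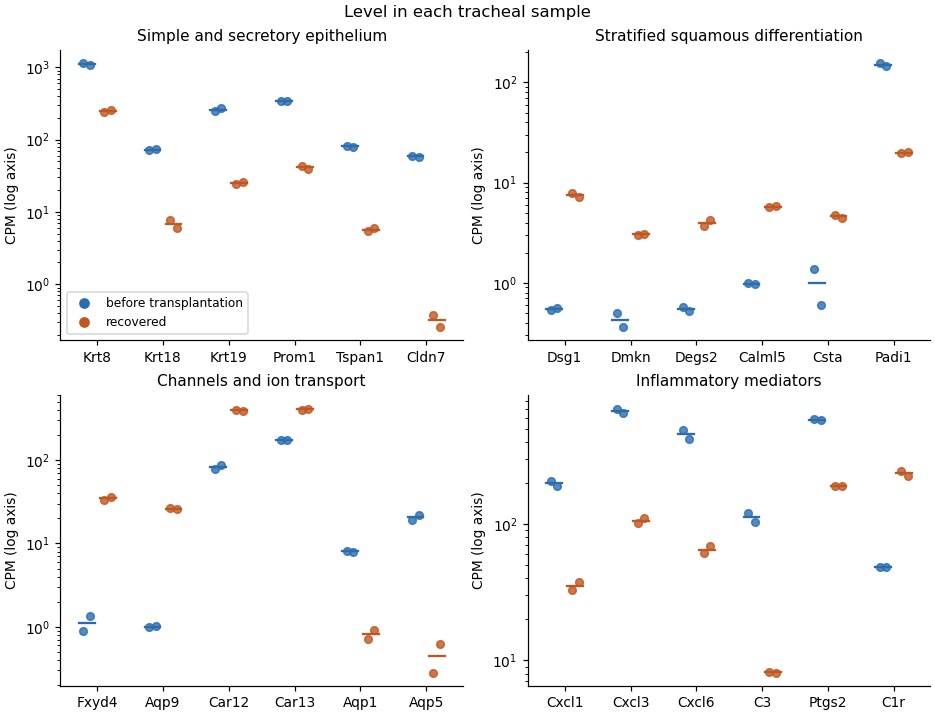
Level of 24 genes in each tracheal sample (CPM, log axis), with first-round samples in blue, recovered samples in orange and a bar at the mean of each pair. The 24 genes were picked from those called, so the lack of overlap between the 2 sets in each of them is not separate support. Cldn7, Aqp5 and Aqp1 are below 1 CPM in both recovered samples.

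Among genes of airway basal cells few were called. Of 7 with an identifier, 1 rose and 0 fell at the thresholds used, and 6 of the 7 had a positive fold change. The median was 0.45, beside -0.08 over genes with a usable name. Col17a1, the transmembrane collagen of hemidesmosomes, was at 714 and 777 CPM before and 1059 and 1009.6 CPM after (0.47, adjusted p = 0.065). Dst, which ties keratin to hemidesmosomes, was at 406 and 461 CPM before and 630.0 and 558 CPM after (0.45, adjusted p = 0.16). Bcam, a laminin receptor, was at 178 CPM before and 226 CPM after (0.35, adjusted p = 0.015). Dapl1, a gene of early differentiating epithelial cells, was the member that rose, from 1.38 and 1.17 CPM to 5.31 and 3.21 CPM (1.64, SE 0.36, adjusted p = 0.0016).

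Transcription factors of the foregut and airway divided. Of 14 with an identifier, 3 rose, 3 fell and 8 were not called, beside a background of 10.2% higher and 19% lower. Hoxb3, a homeobox factor of the anterior body axis, went from 5.50 and 5.83 CPM to 1.46 and 1.17 CPM (-2.12, SE 0.22, adjusted p = 1.5e-06), and Tbx1, a T-box factor of the pharyngeal region, from 7.04 and 6.52 CPM to 1.36 and 0.875 CPM (-2.64, SE 0.44, adjusted p = 0.00017). Hoxa3, a homeobox factor of the same region, had 89 reads before and 2 after, a ratio of 42.6 with a 95% exact counting interval of 11.5 to 357. Tbx3, a T-box factor with roles in the limb, mammary gland and skin appendages, went from 0.500 and 0.443 CPM to 6.34 and 5.40 CPM (3.57, SE 0.41, adjusted p = 4.5e-06). Barx2, a homeobox factor of several epithelia, went from 16.4 and 18.0 CPM to 38.6 and 35.2 CPM (1.10, SE 0.13, adjusted p = 4.5e-06).

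The rise of Elf5, an ETS factor of glandular epithelia, was small (1.08, adjusted p = 0.038) and was no longer called when any 1 of the 4 samples was left out (adjusted p = 0.076 to 0.14). Foxa1, a pioneer factor of endoderm, was at 19.5 ± 0.542 CPM before and 11.6 ± 0.986 CPM after, and Isl1, a LIM homeobox factor, at 12.4 ± 0.380 and 9.86 ± 0.803 CPM. Neither change reached the fold threshold (log2 fold change -0.76, adjusted p = 0.015, and -0.33, adjusted p = 0.035). The epithelial ETS factors Elf3 and Ehf were above 100 CPM in both sets, with log2 fold changes of 0.46 and 0.44.

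Genes used by the hair follicle lineage did not move as a group. Of 30 with an identifier, 5 rose and 5 fell, beside a background of 10.2% higher and 19% lower. The median was -0.13, and 12 of the 30 stayed below 1 CPM in all 4 samples. Barx2, which rose, and Tbx1, which fell, also stand in the list of foregut and airway factors. The homeobox genes Dlx1, Dlx3 and Dlx5, which act in hair and other ectodermal appendages, were among the genes that rose. Dlx3 went from 0.615 and 0.604 CPM to 2.16 and 2.63 CPM (1.95, SE 0.30, adjusted p = 8.2e-05). The calls of Dlx1 and Dlx5 depended on single samples. Without the second first-round sample Dlx5 had an adjusted p of 0.061. Dlx1 had an adjusted p of 0.085 without the first first-round sample and of 0.062 without the first recovered one. Gli1, a target and effector of hedgehog signalling, rose from 0.538 and 0.161 CPM to 1.22 and 1.79 CPM (2.25, SE 0.43, adjusted p = 0.0006). In recovered whisker cells Dlx3 was at 8.23 CPM, Dlx5 at 9.75 CPM and Gli1 at 13.6 CPM, so the tracheal levels stayed lower in value. That difference was not tested, and naming a gene already required a difference from whisker cells in some comparison. Cd200, a surface protein of follicle stem cells and many other cells, fell from 23.5 and 24.4 CPM to 3.94 and 3.39 CPM (-2.72, SE 0.24, adjusted p = 2.3e-07). The list held 2 falls in place of 5 when either recovered sample was left out.

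**Figure D3:**
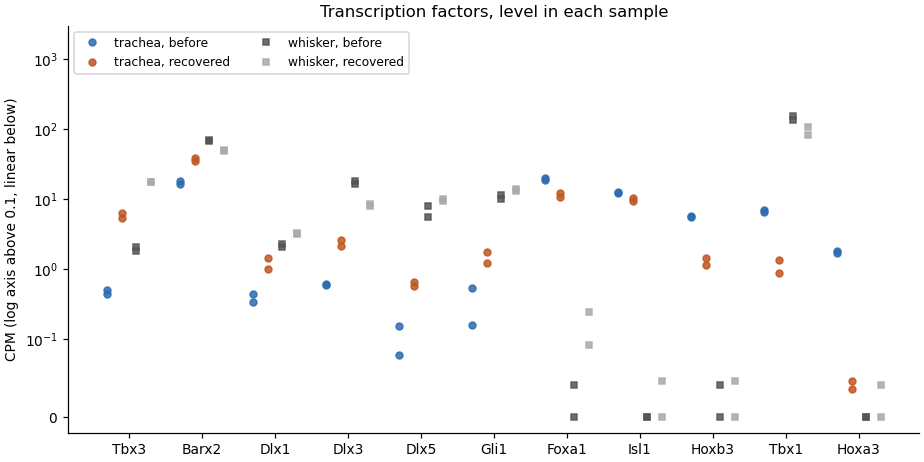
Level of 11 transcription factors in each tracheal sample (circles, before in blue and recovered in orange) and each whisker sample (squares), in CPM on an axis that is logarithmic above 0.1 and linear below. Tbx3, Barx2, Dlx1, Dlx3, Dlx5 and Gli1 are higher in both recovered tracheal samples than in both first-round ones, and the other 5 factors are lower.

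Signalling lists held few calls. In the Wnt pathway 1 of 21 genes rose and 3 fell, both shares under the background, and without the second recovered sample the falls numbered 1. Dkk3, a secreted protein related to Wnt inhibitors, fell by 3.52 on the log2 scale (SE 0.53, adjusted p = 6.9e-05), and Dact3, an intracellular modulator of the pathway, rose by 1.54 (SE 0.26, adjusted p = 0.00021). The ligand Wnt4 was at 288 and 295 CPM before and 178 and 190.3 CPM after (-0.66, adjusted p = 0.00056) and Ctnnb1, beta-catenin, at 703 and 704 CPM before and 568 and 629 CPM after (-0.23, adjusted p = 0.021), both under the fold threshold. In the Notch pathway 0 of 10 genes rose, and 1, the atypical ligand Dlk1, fell (-1.67, SE 0.38, adjusted p = 0.002).

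Ciliated cell genes showed no common direction. Of 25 with an identifier, 5 rose and 4 fell, beside a background of 10.2% higher and 19% lower, and 10 stayed below 1 CPM in all 4 samples. The dynein genes Dnai2 and Dnah2, which encode parts of the ciliary motor, rose. Dnai2 went from 1.81 and 1.89 CPM to 14.2 and 13.3 CPM (2.88, SE 0.32, adjusted p = 3.6e-06) and Dnah2 from 5.81 and 7.32 CPM to 29.9 and 27.2 CPM (2.12, SE 0.15, adjusted p = 1.8e-08). Dnah1, another dynein heavy chain, fell from 9.19 and 10.1 CPM to 4.04 and 4.19 CPM (-1.22, SE 0.24, adjusted p = 0.00068). When only the 4 tracheal samples were fitted, the list held 1 fall in place of 4.

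Inflammatory mediators fell. Of 44 genes of the list of cytokines, chemokines and epithelial defence, 19 fell and 4 rose, with a median of -0.89, or -0.80 with genes at 0 reads set to their bound. Neutrophil chemokines were among the genes that fell. Cxcl3 was at 701 and 645 CPM before and 101 and 109.5 CPM after, and Cxcl6 at 487 and 422 CPM before and 60.9 and 68.4 CPM after. Cxcl1 was at 207 and 189.6 CPM before and 32.8 and 37.5 CPM after. The sets were apart in each gene, with log2 fold changes of -2.67 (SE 0.17, adjusted p = 4.4e-09), -2.81 (SE 0.17, adjusted p = 4.3e-09) and -2.49 (SE 0.14, adjusted p = 1.3e-09). Reads that fit several genes were not counted, which can lower the level of close relatives such as these chemokines.

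The promoters of Cxcl1 and Cxcl6 are shown because both genes fell together and share a run of bases in the same stretch. The sequences are from RefSeq on the rat build GRCr8 and cover 150 to 51 bases before the annotated start of each gene, on the minus strand of chromosome 14. That is chr14:17479372-17479471 for Cxcl1 and chr14:17596468-17596567 for Cxcl6. Capitals mark matches to the NF-kappaB consensus, the sequence bound by a factor that drives many chemokine genes.
Cxcl1: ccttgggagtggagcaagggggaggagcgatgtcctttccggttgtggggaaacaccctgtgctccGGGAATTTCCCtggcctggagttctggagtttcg
Cxcl6: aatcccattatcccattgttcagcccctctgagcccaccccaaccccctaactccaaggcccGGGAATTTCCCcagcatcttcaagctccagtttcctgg
The matched run began 84 bases before the start of Cxcl1 and 88 bases before that of Cxcl6, and in both genes it was read on both strands as 2 overlapping matches. Searched on both strands over the 250 bases before the start, the consensus was present in 1185 of 33469 promoters (3.54%). Of the 19 members of the list that fell, 15 had a promoter entry and 5 of these held a match. Ccl20 was among the 5, and so were Cxcl1 and Cxcl6, whose promoters gave the motif, so the count is not independent of that choice. List members were counted by gene and the share of 3.54% by promoter entry. Of the 10 entries of members that were not called 2 held a match, and of the 2 entries of members that rose 0 did. The motif was chosen after the promoters of Cxcl1 and Cxcl6 had been read, and a match describes the letters and not a bound site.

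Several other members of the list fell too. C3, the central complement component, went from 119 and 104 CPM to 8.17 and 8.13 CPM (-3.77, SE 0.17, adjusted p = 1e-10). Il1rl1, the receptor of interleukin-33, went from 109.5 and 107 CPM to 9.86 and 12.2 CPM (-3.29, SE 0.24, adjusted p = 2.3e-08). Ccl20, which attracts lymphocytes and dendritic cells, fell by 3.59 (SE 0.64, adjusted p = 0.00033), and Cx3cl1 fell by 2.91 (SE 0.45, adjusted p = 9e-05). The groups did not overlap in these genes. Ptgs2, the inducible prostaglandin synthase, went from 586 and 574 CPM to 189 and 190.0 CPM (-1.61, SE 0.13, adjusted p = 7.6e-08), while Ptgs1 and Ptges, which act in the same pathway, did not reach the fold threshold (-0.43, adjusted p = 0.0006, and -0.18, adjusted p = 0.15).

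A few defence genes rose. C1r, a protease of the classical complement pathway, went from 48.3 and 48.2 CPM to 246 and 224 CPM (2.28, SE 0.09, adjusted p = 1.5e-11). Epgn, a ligand of the EGF receptor, went from 21.6 and 23.5 CPM to 78.9 and 86.0 CPM (1.87, SE 0.14, adjusted p = 2.7e-08), while the related ligands Areg and Nrg1 were not called (adjusted p = 0.69 and 0.019, log2 fold change -0.12 and -0.34). In the list of interferon and antigen presentation genes, 4 of 27 rose and 7 fell, beside a background of 10.2% higher and 19% lower. Cmpk2 and Cxcl10, which interferon induces, fell by 3.57 (SE 0.73, adjusted p = 0.001) and fell by 1.83 (SE 0.38, adjusted p = 0.001), and Ifit2 fell by 1.33 (SE 0.11, adjusted p = 1.7e-07). Dhx58, a sensor related to RIG-I, rose by 1.66 (SE 0.17, adjusted p = 9.6e-07), and Mr1, which presents metabolites to T cells, rose by 1.53 (SE 0.17, adjusted p = 3e-06).

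Matrix genes fell more often than they rose. Of 41 genes for basement membrane, hemidesmosome and matrix, 16 fell and 3 rose, with a median of -0.82, and without the first first-round sample 1 rose. Col1a1, the chain of type I collagen, went from 151 and 154 CPM to 25.8 and 25.9 CPM (-2.56, SE 0.18, adjusted p = 1.5e-08). Col3a1 went from 100.4 and 105 CPM to 12.4 and 7.51 CPM (-3.44, SE 0.23, adjusted p = 1.1e-08). Col6a3 and Col6a2, chains of collagen VI, fell by 2.24 (SE 0.28, adjusted p = 9.6e-06) and fell by 3.25 (SE 0.24, adjusted p = 3.8e-08). Both recovered samples lay below both first-round samples in each of these collagens. Adamts1, a matrix protease, went from 153 and 155 CPM to 28.2 and 29.4 CPM (-2.41, SE 0.24, adjusted p = 9.9e-07), and Loxl2, which crosslinks collagen, fell by 2.68 (SE 0.22, adjusted p = 9.6e-08).

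Some matrix genes did not fall. Col7a1, the anchoring fibril collagen that keratinocytes make, was at 542 CPM before and 986 CPM after (0.86, adjusted p = 0.0016), and Col5a2 at 305 CPM before and 392 CPM after (0.36, adjusted p = 0.0034), both under the fold threshold. Tgfbi, a matrix adhesion protein, rose by 1.15 (SE 0.17, adjusted p = 5.1e-05).

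Markers of fibroblasts moved with the matrix genes. Of the 10 fibroblast markers with an identifier, 9 fell and 0 rose, and the collagens among them also stand in the matrix list. The summed level of the 10 was 406 and 417 CPM in the first-round samples and 66.1 and 54.2 CPM in the recovered ones. Fstl1, a secreted glycoprotein, went from 37.5 and 41.9 CPM to 3.24 and 2.44 CPM (-3.83, SE 0.25, adjusted p = 7.9e-09). The feeder cells were mouse fibroblasts and sorting on EGFP removes cells without the reporter. The part of rat or feeder fibroblasts in the fall of matrix genes was not tested. In bulk RNA, fewer cells of a type and less RNA per cell cannot be told apart.

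Of 10 immune markers, 6 fell and 1 rose, and 4 of the 10 stayed below 1 CPM in all 4 samples. Their sum was 41.2 and 37.1 CPM before and 72.6 and 65.3 CPM after. Most of the sum after recovery was Cd68, a lysosomal glycoprotein best known from macrophages, which went from 12.2 and 11.1 CPM to 61.9 and 55.2 CPM (2.32, SE 0.11, adjusted p = 3.1e-10). Gpnmb, a glycoprotein found in macrophages and pigment cells, also rose, from 16.4 and 18.4 CPM to 86.1 and 82.4 CPM (2.28, SE 0.10, adjusted p = 1.3e-10). The leukocyte genes Lcp1 and Coro1a fell by 2.22 (SE 0.26, adjusted p = 5.5e-06) and fell by 2.90 (SE 0.42, adjusted p = 5.1e-05). The 6 markers of endothelium, muscle and melanocytes summed to 26.8 and 25 CPM before and 22.0 and 22.6 CPM after.

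Cell cycle genes leaned downward. Of 51 with an identifier, 14 fell and 1 rose, beside the background of 19% lower. Of the 51, 43 had a negative fold change, and the median was -0.68, beside -0.08 over genes with a usable name. Orc1, Clspn and Bub1b, which act in replication origin licensing, the replication checkpoint and the spindle checkpoint, fell by 1.37 (SE 0.26, adjusted p = 0.00048), fell by 1.43 (SE 0.32, adjusted p = 0.0022) and fell by 1.14 (SE 0.18, adjusted p = 0.00012). No gene of the list had a log2 fold change below -1.43, and without the second recovered sample 7 genes were called lower in place of 14. The list held 2 rises in place of 1 without that sample or without the first first-round one. Ccnd1, Ccnd2 and Cdkn1a, at 1468, 272 and 307 CPM before and 1550.0, 305 and 285 CPM after, were not called. Aurkb, the kinase of the chromosomal passenger complex, rose against the rest, from 50.4 and 46.8 CPM to 124 and 136 CPM (1.42, SE 0.15, adjusted p = 1.3e-06).

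Genes of xenobiotic and retinoid metabolism moved both ways, with 11 of 50 higher and 9 lower and a median of 0.29. The background was 10.2% higher and 19% lower. The carboxylesterases Ces2g and Ces2h rose, Ces2g from 72.5 and 67.9 CPM to 192 and 194 CPM (1.46, SE 0.06, adjusted p = 7.7e-11). The carotenoid-cleaving oxygenases Bco1 and Bco2 rose by 2.07 (SE 0.31, adjusted p = 7.2e-05) and 1.85 (SE 0.15, adjusted p = 7.3e-08), Bco2 from 16.2 and 14.1 CPM to 54.6 and 54.6 CPM. Gpx3, a secreted glutathione peroxidase, went from 13.0 and 13.0 CPM to 0.939 and 0.839 CPM (-3.85, SE 0.31, adjusted p = 8.3e-08). Akr1c14, an aldo-keto reductase of steroid metabolism, had 38 reads before and 0 after, which makes it at least 12.1-fold lower. Akr1b8 and Ahr, the aryl hydrocarbon receptor, were above 200 CPM in both sets and under the fold threshold.

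**Figure D4:**
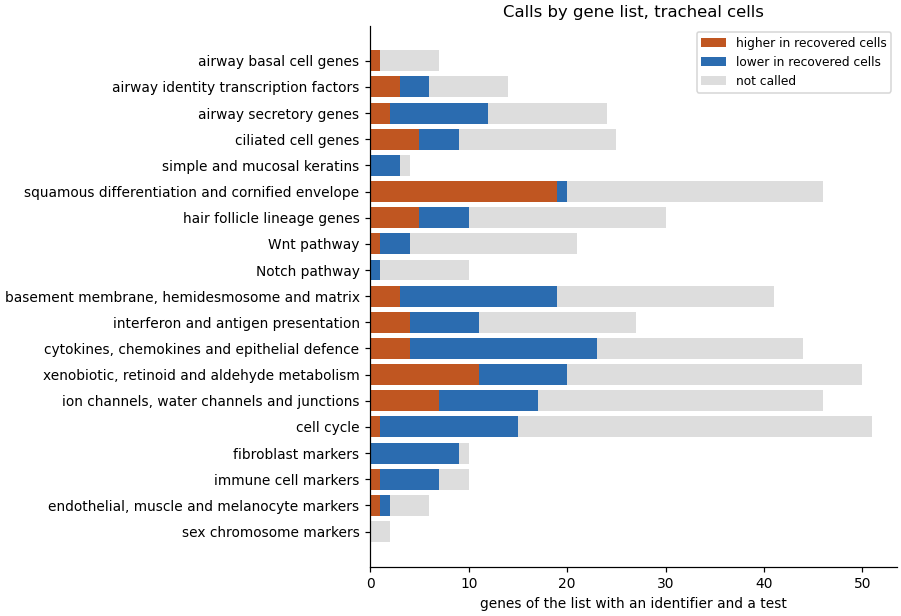
Number of genes in each of 19 gene lists that were higher in recovered tracheal cells (orange), lower (blue) or not called (grey). The squamous list holds the most genes that rose (19) and the cytokine list the most that fell (19).

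Beyond the lists, the largest rises and falls took in genes of other kinds. Moxd1, a monooxygenase-like protein, went from 4.84 and 5.23 CPM to 62.6 and 57.3 CPM (3.57, SE 0.12, adjusted p = 6.8e-12), and Heph, a ferroxidase that helps export iron, from 13.9 and 15.7 CPM to 87 and 84.4 CPM (2.54, SE 0.10, adjusted p = 3.7e-11). Ryr1, a calcium release channel best known from muscle, went from 2.35 and 2.66 CPM to 17.6 and 18.3 CPM (2.84, SE 0.19, adjusted p = 8.6e-09). Bcat1, which transfers the amino group of branched-chain amino acids, had 695 reads before and 3 after, a ratio of 222 with a 95% exact counting interval of 75.6 to 1079. Wipf1, an actin regulator of the WASP pathway, went from 21.4 and 20.9 CPM to 0.0470 and 0.255 CPM (-7.18, SE 0.49, adjusted p = 1.3e-08). Cd38, an enzyme that consumes NAD, went from 72.8 and 75.4 CPM to 4.13 and 3.83 CPM (-4.22, SE 0.23, adjusted p = 1.1e-09), and Tbc1d9, a protein of the Rab regulator family, from 111 and 115 CPM to 11 and 10.6 CPM (-3.39, SE 0.11, adjusted p = 6.8e-12).

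Some strong changes were in genes without a paired name. ENSRNOG00000020380 went from 3.77 and 3.26 CPM to 255 and 265 CPM (6.20, SE 0.17, adjusted p = 8e-13), and ENSRNOG00000029726 from 31.5 and 24.4 CPM to 459 and 386 CPM (3.92, SE 0.13, adjusted p = 6.8e-12). ENSRNOG00000013973 went from 39.4 and 36.7 CPM to 1.17 and 0.985 CPM (-5.13, SE 0.45, adjusted p = 2e-07), and ENSRNOG00000019244 from 118 and 131 CPM to 3.80 and 4.45 CPM (-4.90, SE 0.33, adjusted p = 1.2e-08).

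The change in tracheal cells was then set beside the change in bladder, vaginal and thymic cells, which share no samples with it. Whisker cells were left out because they went from a clone to a subclone. Of the 584 genes that rose in trachea, 337 (57.7%) also rose in bladder, where 10.1% of all genes did, 190 (32.5%) in thymus, where 8.49% did, and 85 (14.6%) in vagina, where 4.25% did. In vagina 89 of the 584 genes fell, more than the 85 that rose, against 54 that fell in thymus and 21 in bladder. The 337 genes were 25.1% of those that rose in bladder. Of the 1069 genes that fell in trachea, 637 (59.6%) also fell in bladder, where 11% of all genes did, 308 (28.8%) in vagina, where 7.53% did, and 262 (24.5%) in thymus, where 6.89% did. The 637 genes were 43.6% of those that fell in bladder. In thymus 226 of the genes that fell in trachea rose, close to the 262 that fell there as well, against 110 in vagina and 56 in bladder. All 3 tissues shared 37 of the rises and 58 of the falls with trachea, and 169 rises and 240 falls were called in none of them. A gene can be called in one tissue and miss the threshold in another, so the difference itself was tested.

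That test, of the change in trachea minus the mean change in the 3 tissues, called 526 genes higher (3.95%) and 764 genes lower (5.74%). Against vagina and thymus alone, 832 were higher and 1032 lower. Hgfac, a serine protease that activates hepatocyte growth factor, was at 20.5 and 20.6 CPM before and 16.1 and 19.0 CPM after in trachea, while its log2 fold change was between -3.20 and -5.77 in the other tissues. Hsd11b1, which regenerates active glucocorticoid, was at 20.6 and 18.7 CPM before and 20.6 and 23.0 CPM after in trachea and had log2 fold changes of -2.06 to -4.44 in the other tissues. Clic6, a chloride channel protein, had -0.51 in trachea and -2.98 to -4.66 in the other tissues. The differences were 4.13, 3.13 and 3.41 on the log2 scale (adjusted p = 7.3e-07, 5.9e-05 and 9.1e-05).

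Among the genes with the opposite sign, Wipf1, Cachd1, Hoxa3 and Tbx1 fell in trachea and changed less or upward on average in the other tissues. Cachd1, a calcium channel-related protein, had a log2 fold change of -3.18 in trachea, 0.71 in bladder, 4.03 in vagina and 2.46 in thymus. Its thymic value rests on few reads, at a mean of 0.0 CPM before and 0.104 CPM after. Tbx1 had -2.64 in trachea and 1.05, 2.56 and 1.22 in bladder, vagina and thymus. Hoxa3 had 0.93, 0.19 and 0.16 in those tissues. Of the squamous list, 6 members had a higher change in trachea than the mean of the other tissues and 12 a lower one. Krt8 fell less in trachea than on average in the other tissues (difference 1.37, adjusted p = 2.9e-06), where its log2 fold change was -2.59 in bladder, -5.40 in vagina and -2.63 in thymus. Krt18 and Krt19 fell more than the average (-1.80, adjusted p = 2.5e-05, and -1.61, adjusted p = 3.9e-05), with thymus at 1.20 and 0.99. Thymus raises that average, so the test does not show a deeper fall in trachea than in bladder or vagina.

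**Figure D5:**
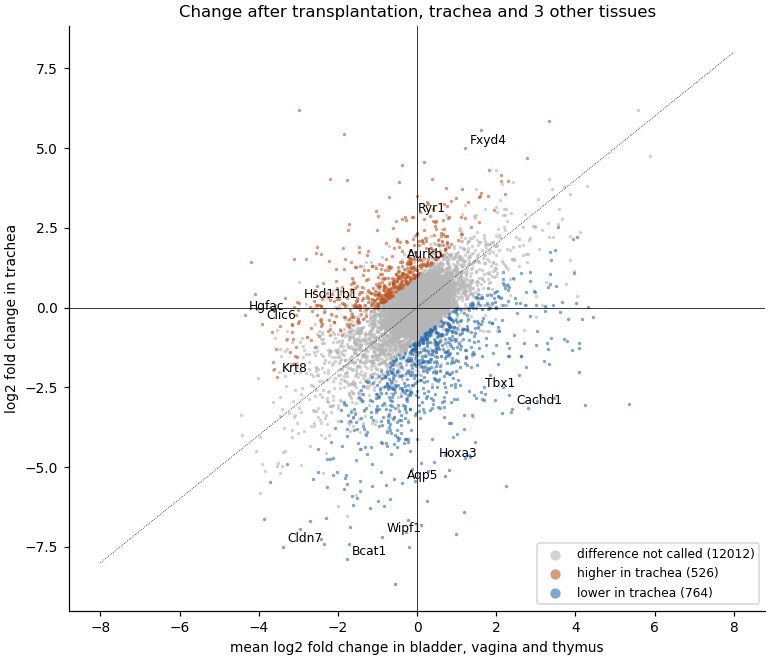
Log2 fold change after transplantation in trachea (vertical axis) against the mean log2 fold change in bladder, vagina and thymus (horizontal axis) for each gene tested, with the dotted line at equality. Genes whose difference was called lie off that line, 526 above it and 764 below, with Hgfac and Clic6 to the left near 0 in trachea and Wipf1 and Bcat1 at the bottom.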

How the data were processed

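RNA from EGFP-sorted cultured cells was sequenced by the authors as stranded mRNA libraries. The submitters' processing notes name cutadapt 1.8, STAR 2.5.2b and HTSeq 0.6.1 with the rat build Rnor_6.0. The authors deposited raw counts per Ensembl gene, 1 file a sample. Whether counting used strand is not given in the sources used here. Reads with several alignments (12196242 to 15386748 per tracheal sample), reads in no gene and reads in overlapping genes were left out of library sizes and tests.

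Counts of the 20 samples were scaled by TMM (edgeR 4.0.16) and fitted with limma 3.58.1 (voom, R 4.3.3), with a mean for each of 10 groups, 10 residual degrees of freedom and Benjamini-Hochberg adjustment over 13302 genes. For 1 gene alone, exact permutation of 2 samples against 2 reaches no two-sided p under 0.33. In simulated counts with 200 genes changed 4-fold in trachea, 200 were called, with 1 false call among 13093 genes. Genes of low level were not among those changed, the spread was set by hand, and simulated samples were independent. The simulation checks the fit and gives no error rate for genes of low level, smaller changes or samples of shared origin. The samples of a pair differed by more than sampling noise (mean chi-square per gene 4.28 before and 6.24 after), so none were merged.

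Symbols came from the study's supplementary gene lists, of which a part was at hand (2311 identifiers paired, 1913 usable). The gene lists and named genes were chosen with earlier results of these data known. Some genes, such as Tbx1, Barx2, Il36rn, Cxcl17 and Aqp5, stand in several lists, so the list counts are not independent. Names were drawn from the 20 largest rises and falls among called genes that reached 10 CPM in each sample of their higher set, up to 6 called members per direction and members of at least 100 CPM in each list, paired genes that the study names, and the 8 highest and 8 lowest differences between trachea and the other tissues. The identifiers without a name, the NF-kappaB motif, and the differences between tissues of Krt8, Krt18, Krt19, Krt4, Aurkb, Tbx1, Hoxa3 and Tbx3 were chosen after their values were seen. Positions of genes are left out, since the gene table used here belongs to a different build from that of the counts. Alternatives were other tools (edgeR quasi-likelihood, DESeq2 1.42.0), scalings, low-count filters and fold thresholds, a replicate block, fits of the tracheal samples alone, a mean over vagina and thymus only, and leaving out each sample. Scaling without TMM was added after seeing the data.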

Additional observations from a re-analysis of the deposited data

Results flagged for a closer look

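The change after transplantation in trachea differed from the mean change in bladder, vagina and thymus in the genes given here, by the limma test of the difference, and each value is the trachea change minus that mean on the log2 scale. The summed level of Eif2s3y and Ddx3, listed here as sex chromosome markers, was 207 CPM in first-round bladder cells and 249 CPM in recovered ones. In whisker cells the sum was 238 CPM before and 234 CPM after. It was at most 0.154 CPM in tracheal samples, and its mean was at most 0.0348 CPM in vaginal and thymic cells. The part of sex chromosome expression in these differences, and in the levels set beside whisker cells, was not tested. Groups of 2 samples were not searched for outlying samples.

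The difference was positive in Hgfac (4.13), Fxyd4 (3.78), Clic6 (3.41), Hsd11b1 (3.13), Antxrl (2.96), Ryr1 (2.93), Dnai2 (2.56) and Bco2 (2.44). In Antxrl and Ryr1 the tracheal rise of 2.83 and 2.84 stood beside changes between -0.31 and 0.06 and between -1.12 and 0.50 in bladder, vagina and thymus. In whisker cells, which are not part of the mean, Antxrl changed by 0.90. The tissues of the mean were unlike in sign in Bco2, with -0.11 in bladder, 0.86 in vagina and -2.51 in thymus, in Dnai2, with -1.57, 2.08 and 0.45, and in Fxyd4, with 3.35, -1.01 and 1.28.

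The difference was negative in Wipf1 (-6.30), Bcat1 (-6.12), Cachd1 (-5.58), Aqp5 (-5.13), Atp10a (-4.99), Adgrf5 (-4.31), Cldn7 (-4.10) and Ccdc80 (-3.53). The tissues of the mean were unlike in sign in 5 of these genes. Atp10a changed by -0.83 in bladder and 3.61 in vagina, and Ccdc80 by -1.43 in bladder and 1.61 in vagina. In whisker cells, outside the mean, Atp10a changed by -1.98, the direction seen in trachea. Aqp5 changed by 4.11 in bladder and -6.10 in thymus, and Cldn7 by -7.43 in vagina and 0.82 in thymus. Bcat1 changed by -7.30 in bladder and 1.90 in thymus. Mean levels were low for Aqp5 in bladder (0.0187 CPM before, 0.646 CPM after) and Bcat1 in thymus (0.0207 and 0.113 CPM). Adgrf5 was at 0.124 CPM before in vagina and 0.0414 CPM before in thymus, which left little room for a fall there. In bladder Adgrf5 fell as in trachea, by 2.45, from 1.21 to 0.220 CPM.

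Among the keratins the difference was 1.37 in Krt8, -1.80 in Krt18, -1.61 in Krt19 and -1.43 in Krt4. In Krt18 and Krt19 thymus changed upward, which raises their mean. Krt4 changed by 3.13 in bladder, -5.42 in vagina and 4.47 in thymus, so its mean stands for no single tissue. The transcription factors gave -5.27 in Hoxa3, -4.25 in Tbx1 and 1.36 in Tbx3. Aurkb gave 1.79, with changes of 0.39 in bladder, 0.26 in vagina and -1.77 in thymus, and of 0.71 in whisker cells outside the mean. Whisker changes are given here only for Antxrl, Atp10a and Aurkb, which moved there as in trachea.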

How the results depend on the processing

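The count of 1653 genes that differed between recovered and first-round tracheal cells, and its split into 584 higher and 1069 lower, stayed within 1.5 times under 13 alternatives, with edgeR (1666), DESeq2 (1558) and the fit of only the 4 tracheal samples (1445) among them. It moved beyond that only with the fold threshold. At a log2 fold change of at least 2, 725 genes were called (173 higher, 552 lower), and with no fold threshold 5532 (2815 higher, 2717 lower). For the difference from the other tissues these were 559 (161 higher, 398 lower) and 3932 (1968 higher, 1964 lower). Against vagina and thymus only, 832 genes were higher in place of 526. Without each sample in turn the counts ranged from 1372 to 1470 for trachea (481 to 533 higher, 839 to 961 lower) and from 1058 to 1434 for the difference (454 to 598 higher, 593 to 836 lower). Of the 1653 genes, between 1298 and 1397 remained called in the same direction without 1 tracheal sample, and 0 changed direction. Same-numbered samples showed little shared deviation, since the differences between the 2 samples of a set correlated at r = 0.014 between first-round and recovered tracheal cells. That value cannot show whether the samples were paired by design. With a replicate block 1682 genes were called over all 20 samples, 1443 in the 4 tracheal samples and 1332 for the difference. Of 131 genes named here, 3 (Elf5, Dlx1 and Dlx5) lost their call at the fold threshold of 2, each when 1 sample was left out, and 0 changed direction. That check covered the change in trachea only, and the differences from the other tissues were not checked gene by gene. Named genes were not counted under other fold thresholds, where those with smaller changes lose or gain the call by construction. Genes under 3 reads in both sets are limited by depth.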

Other observations

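Other falls were in genes of peptide release and surface receptors. Calcb, which encodes a calcitonin gene-related peptide, went from 19.8 and 15.3 CPM to 0.751 and 1.57 CPM (-3.93, SE 0.63, adjusted p = 0.00012), and Cplx2, a complexin that acts in vesicle release, from 21.0 and 20.4 CPM to 0.282 and 0.657 CPM (-5.47, SE 0.37, adjusted p = 1.2e-08). Adgrf5, an adhesion G protein-coupled receptor known from lung surfactant control, went from 10.8 and 11.3 CPM to 0.188 and 0.182 CPM (-5.75, SE 0.51, adjusted p = 2.4e-07). Its relative Adgrf4 moved the other way, from 2.19 and 1.65 CPM to 15.7 and 15.4 CPM (3.01, SE 0.22, adjusted p = 2.3e-08). The groups did not overlap in these 4 genes.

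Surface and signalling proteins stood among the rises. Cd109, a co-receptor that restrains TGF-beta signalling, went from 7.69 and 8.61 CPM to 39.3 and 39.7 CPM (2.28, SE 0.13, adjusted p = 2.2e-09). Tnfsf9, the ligand of the co-stimulatory receptor 4-1BB, went from 2.73 and 2.25 CPM to 11.9 and 12.8 CPM (2.31, SE 0.20, adjusted p = 1.8e-07). Fads2l1, whose symbol marks it as a relative of a fatty acid desaturase, rose from 2.11 and 3.14 CPM to 16.3 and 15.6 CPM (2.63, SE 0.21, adjusted p = 6.8e-08), and reads shared with its relatives were not counted.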
